A study of Mus musculus with 24 samples.

Results

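The ribosome biogenesis factors described here are 38 mouse genes given as a list of gene symbols, which holds nucleolar proteins, large subunits of RNA polymerase I and assembly factors of the ribosomal subunits. No measured value entered the list itself, although it was chosen with earlier results of these data known. All 38 symbols were found among the 55487 genes of the deposited table, and all 38 were among the 15828 genes with enough counts to be tested. They were measured by bulk mRNA sequencing of mouse embryonic fibroblasts (MEFs) labelled Wild type (WT) or AMPK KO, which the study describes as cells lacking Prkaa1 and Prkaa2, the genes of the catalytic subunits of the energy sensor AMPK. Cells of each genotype received DMSO as the control, MK8722, an activator of AMPK, or Torin-1 (written torin1 here), an inhibitor of the kinase MTOR, with 4 libraries in each of 6 groups and 24 libraries in all. The study asked how far the response to each compound needs AMPK. Each genotype was a MEF line received from another laboratory, the WT libraries came from passages 12 to 15 and the AMPK KO libraries from passages 16 to 19, so genotype, line and passage cannot be told apart. All libraries carried the same batch label.

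Ribosomes are built in the nucleolus, where RNA polymerase I transcribes the precursor of the ribosomal RNAs. Small nucleolar ribonucleoproteins (snoRNPs) methylate and pseudouridylate this precursor, and a large set of helicases, nucleases, GTPases and scaffold proteins folds and cuts it while ribosomal proteins are added to the small and the large subunit. Growing cells spend much of their energy on this work, MTOR signalling is known to promote it, AMPK signalling is known to restrain it, and the transcription factor MYC is known to bind E-box motifs near many of these genes.

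Promoter sequences from RefSeq (build GRCm38.p6, 250 bases before to 50 bases after the annotated start) matched 33 of the 38 genes, leaving Fbl, Npm1, Rrp12, Rrs1 and Bop1 without an entry. The E-box CACGTG, which reads the same on both strands, was found in 8 of these 33 promoters (24.2%), against 11.6% of the 10829 genes tested that had an entry and 8.09% of all 27025 genes of the table. Of the 8 E-boxes, 7 (87.5%) began after the start, within the first transcribed bases, whereas 13.8% of the 1515 E-boxes in promoters of genes tested did so. The windows of 30 bases around these motifs are shown because they carry this feature, 5′ to 3′ on the strand of the gene, with the E-box in capitals and its first base counted from +1 at the annotated start.

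Ltv1, chr10:13193092-13193121, minus strand, E-box at +29: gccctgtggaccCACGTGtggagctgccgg
Nle1, chr11:82908355-82908384, minus strand, E-box at +24: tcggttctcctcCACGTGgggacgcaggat
Nop2, chr6:125131811-125131840, plus strand, E-box at -60: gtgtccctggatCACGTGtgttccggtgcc
Pes1, chr11:3963965-3963994, plus strand, E-box at +3: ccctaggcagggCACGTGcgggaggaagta
Pno1, chr11:17211540-17211569, minus strand, E-box at +38: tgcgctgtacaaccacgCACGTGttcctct
Tsr1, chr11:74898092-74898121, plus strand, E-box at +25: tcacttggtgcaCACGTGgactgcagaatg
Utp20, chr10:88826765-88826794, minus strand, E-box at +38: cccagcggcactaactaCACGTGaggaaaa
Wdr43, chr17:71616220-71616249, plus strand, E-box at +18: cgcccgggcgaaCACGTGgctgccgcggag

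The genes with the deepest responses included promoters without an E-box, of which Bysl and Nolc1 are shown with the 250 bases before the start and the GC box GGGCGG or its reverse complement CCGCCC in capitals. The Nolc1 stretch holds 2 GC boxes and the Bysl stretch holds none.

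Bysl, chr17:47611493-47611742, minus strand: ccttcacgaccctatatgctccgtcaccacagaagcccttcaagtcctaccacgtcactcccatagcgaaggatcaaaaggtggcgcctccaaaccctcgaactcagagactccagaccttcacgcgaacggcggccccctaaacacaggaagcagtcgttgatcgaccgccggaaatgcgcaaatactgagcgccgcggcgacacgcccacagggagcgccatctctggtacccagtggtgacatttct
Nolc1, chr19:46075597-46075846, plus strand: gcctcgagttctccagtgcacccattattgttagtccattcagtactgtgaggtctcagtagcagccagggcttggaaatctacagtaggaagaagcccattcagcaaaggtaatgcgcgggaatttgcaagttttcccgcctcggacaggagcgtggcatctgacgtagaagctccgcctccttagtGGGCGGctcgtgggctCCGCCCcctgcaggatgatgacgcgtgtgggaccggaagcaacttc

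Across the full 300 bases, the GC box was in 25 of 33 promoters (75.8%), close to the 69.5% of genes tested. The longer E-box TCACGTGA, the kind bound by TFEB, was in 0 of 33 promoters against 2.11% of genes tested, and a C followed by 4 pyrimidines exactly at the annotated start was in 0 of 33 against 3.16%. A motif match is a description of letters and not a binding site, and a motif not found in this window may lie outside it.

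The libraries held 26900240 to 34192685 estimated counts each. Levels are given as CPM, the counts scaled to library size with TMM factors. Sums over marker genes are the exception, being scaled to the total count of each library without TMM factors. The catalytic subunit transcripts did not check the genotype, since Prkaa1 was at 65.6 to 82.5 CPM in the 12 AMPK KO libraries and at 71.3 to 84.5 CPM in the 12 WT libraries, and counts per gene do not show a lost exon, so AMPK KO is used as the label of the submitters. Fibroblast markers summed to 10600 to 17200 CPM in WT and to 5090 to 7430 CPM in AMPK KO libraries, while markers of epithelial, endothelial, haematopoietic and muscle cells summed to at most 8.08 CPM in any library. Neural markers, mostly Tubb3, summed to 83.1 to 141 CPM and differed between treatments, as given beside the drug results. Among the 3 WT treatments, passage 12 gave the library with the highest median over the 38 genes each time, and the DMSO library of passage 12 (replicate 4) stood apart from the other 3 DMSO libraries. Its median was 0.15 above the WT DMSO mean on the log2 scale, while the other 3 were at -0.07, -0.04 and -0.03.

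In units per transcript length (TPM), the levels in WT cells with DMSO ranged from Npm1 at 2711 ± 260.3 TPM (SD, n = 4) to Utp15 at 23.7 ± 2.47 TPM, with a median of 104 TPM over the 38 genes. The nucleolar phosphoproteins Npm1 and Ncl (1053 ± 81.9 TPM) stood first, followed by the box C/D snoRNP core proteins Nop56 (498.9 ± 35.5 TPM), Nop58 (494 ± 34.9 TPM) and Fbl (320.4 ± 18.1 TPM). Nop56 and Nop58 did not differ beyond their spread. The RNA polymerase I subunits Polr1a (70.7 ± 6.41 TPM) and Polr1b (40.2 ± 3.30 TPM) stood in the lower range. TPM depends on how short reads were divided among the transcripts of a gene, and for Ncl 83.6% of the TPM, averaged over all libraries, was assigned to a transcript annotated as a retained intron.

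**Figure D1:**
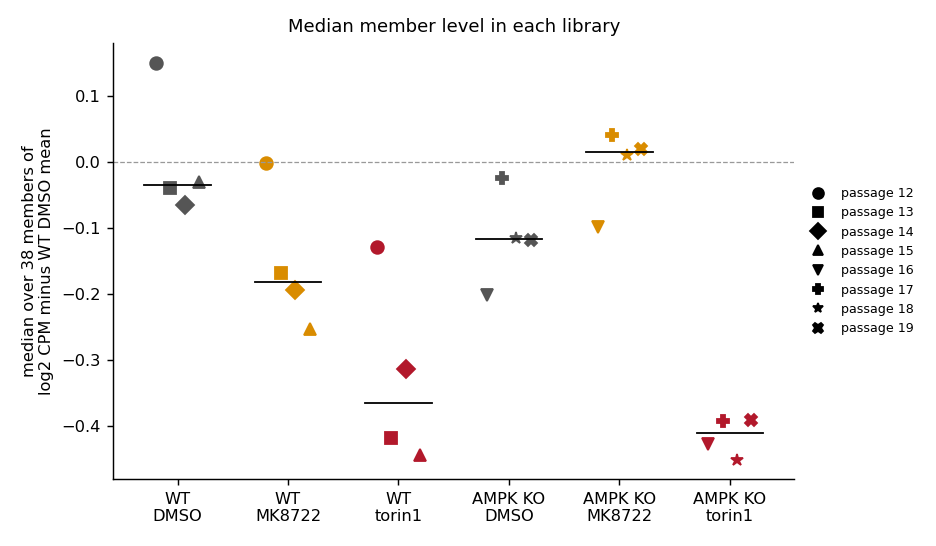
Median over the 38 genes of log2 CPM minus the WT DMSO mean of each gene (vertical axis) for the 24 libraries by group (horizontal axis), with the passage as the symbol and the median of 4 libraries as a line. The torin1 group had the lowest median in each genotype, and the passage 12 library was the highest in each WT group.

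Torin1 lowered the transcripts of most ribosome biogenesis factors in WT cells. Of the 38 genes, 23 fell and 0 rose in the edgeR test (adjusted p below 0.05 and a fold change of at least 1.2), where 21.1% of all 15828 genes were called lower and 26.6% higher. The median log2 fold change was -0.34, against 0.04 over all genes tested, and 31 of 38 values were negative. At an unadjusted p below 0.05, 2 genes were higher and 29 lower, where 5372 and 4703 of all 15828 genes were. DESeq2 called 0 higher and 23 lower, and over all genes 4105 higher and 3298 lower. Without WT DMSO replicate 4, or without WT torin1 replicate 1 or 2, 1 gene was called higher. Groups did not overlap, with every torin1 library below every DMSO library, for 23 genes, where 24.7% of all genes showed this. Values after ± beside a log2 fold change are its standard error (SE, written edgeR SE). It was derived as the absolute log2 fold change over the square root of the edgeR F statistic. Adjusted p-values are from the same fit. In bulk samples, fewer cells that express a gene and less RNA per cell cannot be told apart.

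In AMPK KO cells torin1 gave 20 of 38 genes lower and 0 higher, where 17.6% of all genes were called lower and 25.9% higher. The median log2 fold change was -0.28, against 0.06 over all genes. At an unadjusted p below 0.05, 2 genes were higher and 28 lower, where 5468 and 4186 of all 15828 genes were. DESeq2 called 22 lower and 0 higher, and over all genes 2982 lower and 3772 higher. Groups did not overlap for 24 genes that were lower and 3 that were higher (Ddx10, Noc2l and Npm1), where 23.7% and 30.1% of all genes showed this. There were 18 genes lower in both genotypes, which is 78.3% of the 23 in WT and 18 of the 20 in AMPK KO. The torin1 responses in WT and AMPK KO share no library, and across the 38 genes the log2 fold changes had a Pearson r of 0.95 and a Spearman rho of 0.95, with 35 of 38 signs the same. These points share the scaling of their libraries, and genes are not independent replicates.

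All 5 snoRNP proteins fell with torin1 in both genotypes. Nolc1 (ENSMUSG00000015176, chr19:46075863-46085530, plus strand), a chaperone that brings snoRNPs to the nucleolus, was at 381, 387, 401 and 413 CPM in WT with DMSO and at 214, 232, 232 and 254 CPM with torin1. With the AMPK KO genotype it was at 463, 503, 416 and 458 CPM with DMSO and at 262, 301, 274 and 287 CPM with torin1. Every torin1 library was well below every DMSO library of its genotype, with log2 fold changes of -0.76 ± 0.06 (edgeR SE, adjusted p = 1.60e-10) in WT and -0.71 ± 0.06 (edgeR SE, adjusted p = 7.80e-10) in AMPK KO. Dkc1, the pseudouridine synthase of the H/ACA snoRNPs, fell by 0.54 and 0.53 on the log2 scale in WT and AMPK KO. The box C/D proteins Nop58 (log2 fold changes -0.50 in WT and -0.48 in AMPK KO), Fbl, the methyltransferase of that class (-0.38 and -0.37), and Nop56 (-0.28 and -0.28) fell by less than Nolc1.

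Of the 15 small subunit factors, 10 fell in WT and 7 in AMPK KO. Bysl (ENSMUSG00000023988, chr17:47599331-47611492, minus strand), a factor of the late small subunit precursor, was at 125, 131, 127 and 127 CPM in WT with DMSO and at 69.2, 65.6, 71.1 and 76.2 CPM with torin1. In AMPK KO cells its values were 118, 119, 98.8 and 112 CPM with DMSO and 61.1, 63.5, 63.7 and 61.3 CPM with torin1. The DMSO libraries were higher throughout, with no overlap in either genotype. The log2 fold change was -0.85 ± 0.06 (edgeR SE, adjusted p = 5.21e-12) in WT and -0.85 ± 0.06 (edgeR SE, adjusted p = 1.27e-11) in AMPK KO, the deepest fall of the 38 genes in AMPK KO cells. Rrp12, which acts in export and maturation of the small subunit, fell by 0.78 in WT and by 0.77 in AMPK KO on the log2 scale. Pno1 (log2 fold changes -0.70 and -0.57) and Ltv1 (-0.70 and -0.58), 2 more factors of the late precursor, fell in both genotypes, as did Heatr1 (-0.50 and -0.41), which acts at the first steps, and the snoRNP protein Rrp9 (-0.47 and -0.62). Wdr75, Utp20 and Utp15, which belong to the early small subunit processome, fell in WT by 0.35, 0.28 and 0.28 and had log2 fold changes of -0.22, -0.17 and -0.19 in AMPK KO, where none passed the fold threshold.

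Not every small subunit factor was lower. Nob1 (ENSMUSG00000003848, chr8:107412486-107425051, minus strand), the nuclease that makes the last cut of the small subunit RNA, was at 82.2, 84.5, 88.3 and 89.6 CPM in WT with DMSO and at 101.6, 93.7, 98.3 and 102.4 CPM with torin1. The torin1 values were all above the DMSO values in WT, although the log2 fold change of 0.20 ± 0.06 (edgeR SE, adjusted p = 0.00792) was under the fold threshold. For AMPK KO the values were 94.1, 94.1, 77.7 and 85.9 CPM with DMSO and 86.0, 91.0, 84.9 and 90.01 CPM with torin1, which overlapped. The helicase Ddx10 (log2 fold changes 0.12 and 0.13) and the processome protein Nop14 (0.14 and 0.08) also had positive values that were not called.

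Of the 13 large subunit factors, 7 fell in each genotype. Rrs1 (ENSMUSG00000061024, chr1:9545408-9547455, plus strand), which recruits ribosomal proteins and RNA to the large subunit precursor, had the deepest fall in WT cells. It was at 127, 138, 126 and 149.7 CPM in WT with DMSO and at 65.7, 68.0, 73.7 and 86.3 CPM with torin1. In AMPK KO cells it was at 98.4, 105, 75.1 and 97.2 CPM with DMSO and 54.8, 56.4, 55.8 and 57.6 CPM with torin1. No torin1 library reached the lowest DMSO library, and the log2 fold change was -0.88 ± 0.09 (edgeR SE, adjusted p = 2.09e-08) in WT and -0.74 ± 0.09 (edgeR SE, adjusted p = 4.40e-07) in AMPK KO. Nop16 (ENSMUSG00000025869, chr13:54584185-54590090, minus strand), a nucleolar protein of the large subunit path, was at 69.8, 70.7, 70.4 and 75.9 CPM in WT with DMSO and at 38.1, 43.5, 43.0 and 47.3 CPM with torin1, again without overlap, with a log2 fold change of -0.74 ± 0.07 (edgeR SE, adjusted p = 1.46e-09).

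Members of the same complex did not move by equal amounts. Bop1, Pes1 and Wdr12 form the PeBoW complex of large subunit maturation, and their log2 fold changes with torin1 in WT were -0.69, 0.04 and -0.33. Bop1 fell in both genotypes, Wdr12 fell in WT alone by the call while its AMPK KO value of -0.25 was separated from DMSO without passing the fold threshold, and Pes1 was not called in either. The difference between genotypes was not called for any of the 3. Noc2l and Noc3l, partners in a complex of the large subunit path, had values near 0 in WT (-0.03 and 0.02), and their small subunit relative Noc4l had -0.07.

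Neither RNA polymerase I subunit was called with torin1. Polr1a (ENSMUSG00000049553, chr6:71909053-71984935, plus strand), the largest subunit, was at 197, 198, 195 and 226 CPM in WT with DMSO and at 169.8, 176, 175 and 189 CPM with torin1. Among AMPK KO libraries it was at 241, 249.6, 235 and 239.9 CPM and 198, 218.8, 194 and 204 CPM. The groups did not overlap in either genotype, and the log2 fold changes of -0.20 ± 0.06 (edgeR SE, adjusted p = 0.00477) and -0.25 ± 0.06 (edgeR SE, adjusted p = 0.000996) were under the fold threshold of 1.2. Polr1b (ENSMUSG00000027395, chr2:129100995-129126594, plus strand), the other large catalytic subunit, was at 93.0, 88.8, 88.1 and 107 CPM in WT with DMSO and at 77.99, 80.9, 82.4 and 91.8 CPM with torin1, which overlapped, with a log2 fold change of -0.18 ± 0.08 (edgeR SE, adjusted p = 0.0536). In AMPK KO cells the Polr1b groups also overlapped, at 65.9 to 82.7 CPM and 67.6 to 75.9 CPM.

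The nucleolar phosphoproteins had log2 fold changes of opposite sign. Ncl (ENSMUSG00000026234, chr1:86344719-86359400, minus strand), nucleolin, was at 2122, 2082, 2309 and 2446 CPM in WT with DMSO and at 1741, 1685, 1994 and 2114 CPM with torin1, and in AMPK KO at 2200.0, 2381, 2131 and 2196 CPM and 1821, 1890.0, 1786 and 1877 CPM. The WT groups overlapped in 1 torin1 library, the AMPK KO groups did not, and the log2 fold changes were -0.25 ± 0.06 (edgeR SE, adjusted p = 0.00133), a size under the fold threshold, and -0.27 ± 0.06 (edgeR SE, adjusted p = 0.000657), a size that was called. Npm1, nucleophosmin, had the highest log2 fold change of the 38 genes in both genotypes, at 0.24 ± 0.07 (edgeR SE, adjusted p = 0.00402) in WT and 0.22 ± 0.07 (edgeR SE, adjusted p = 0.00816) in AMPK KO, and was called in neither, since both values were under the fold threshold. Ddx21 (ENSMUSG00000020075, chr10:62580251-62602281, minus strand), a helicase of rRNA synthesis and processing, was at 552, 558, 579 and 637 CPM in WT with DMSO and at 404, 401, 465 and 506 CPM with torin1. It fell in WT (log2 fold change -0.39 ± 0.07, adjusted p = 5.29e-05) and was at -0.21 in AMPK KO, below the fold threshold.

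**Figure D2:**
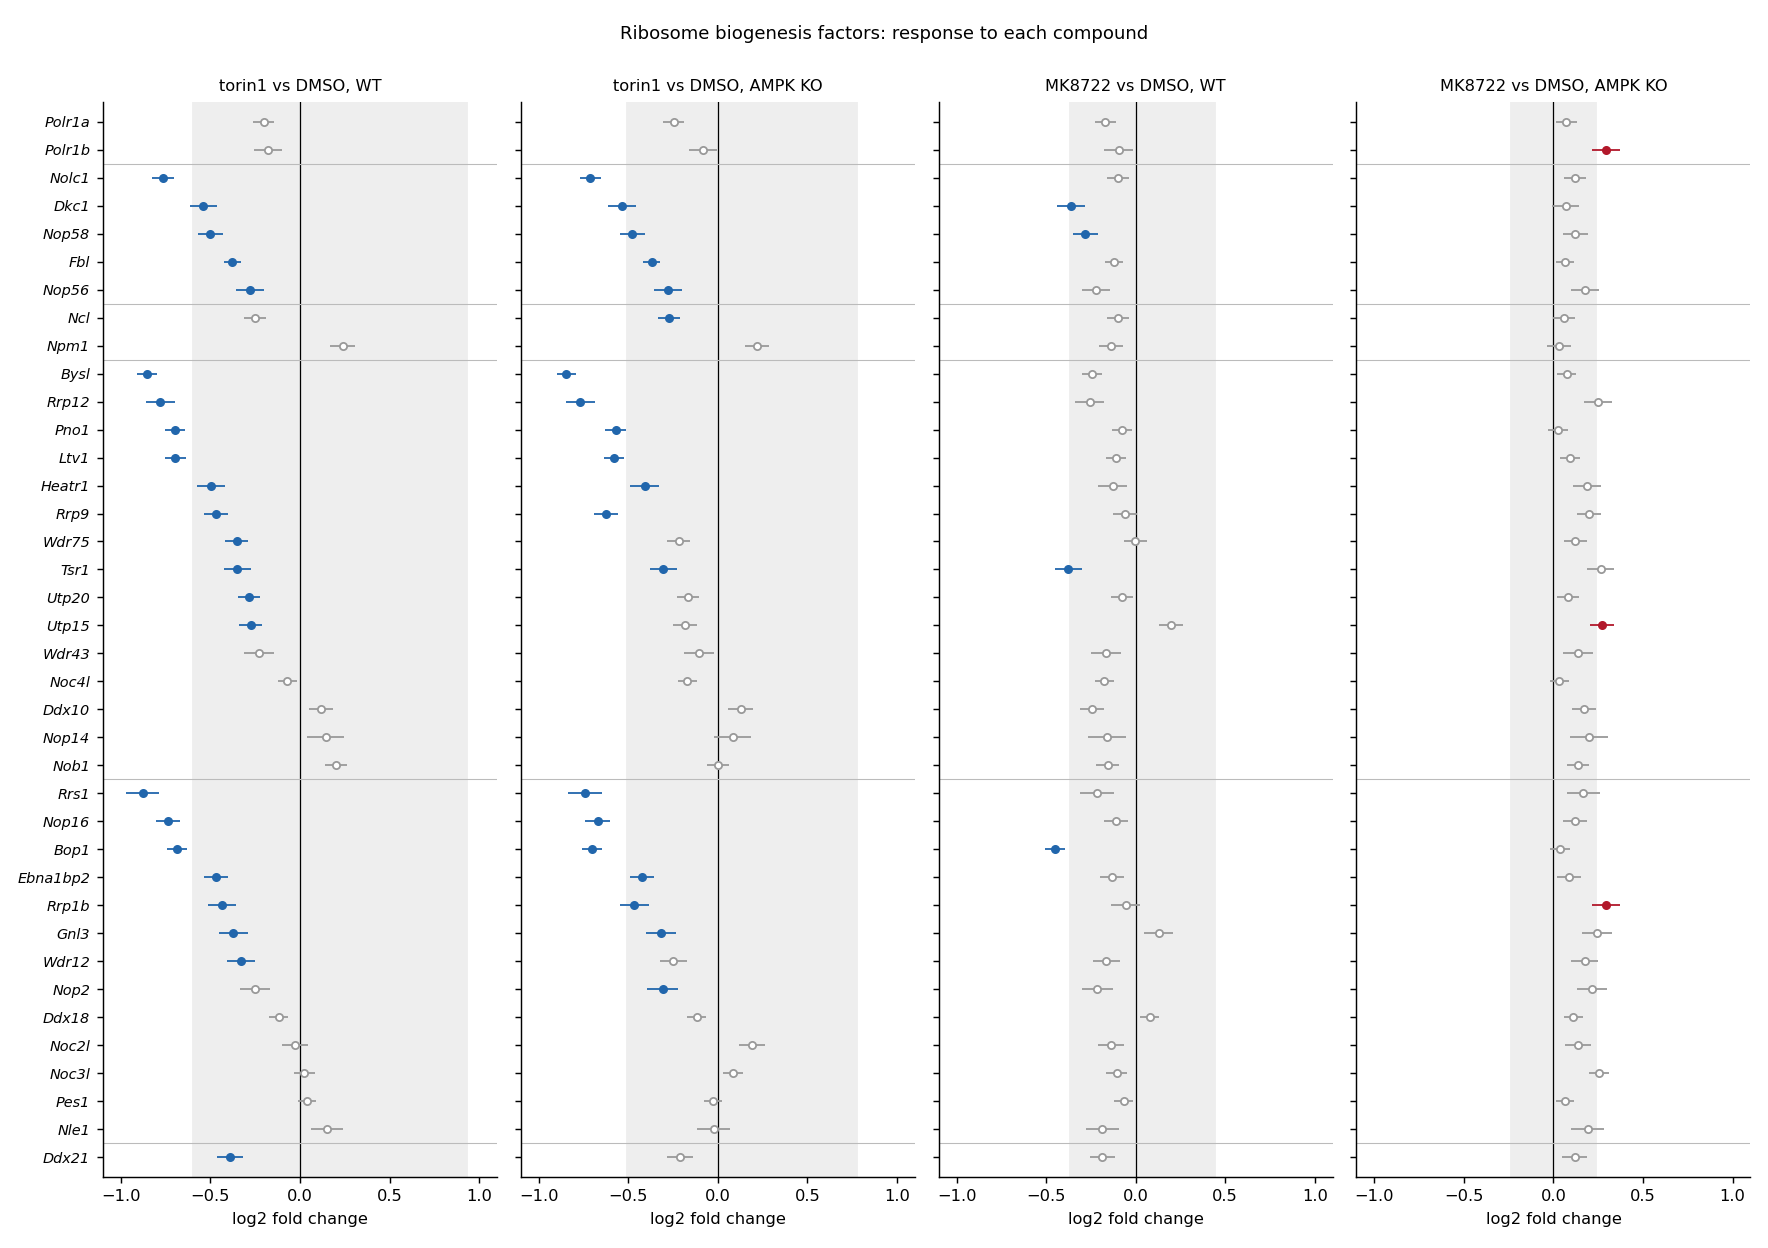
Log2 fold change with its standard error (horizontal axis) of each gene (vertical axis, grouped by role with RNA polymerase I first, then snoRNP, phosphoprotein, small subunit, large subunit and Ddx21) for the 4 drug comparisons. Filled blue points were called lower (23, 20, 4 and 0 genes from left to right), filled red points higher (3 in the last panel), open points were not called, and the grey band spans the 10th to 90th percentile of all genes tested.

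A difference of the torin1 response between genotypes was called for 0 of 38 genes in the edgeR interaction test, in which 4.15% of all genes were called higher and 2.92% lower in AMPK KO minus WT. At an unadjusted p below 0.05, 1 gene was higher (Noc2l) and 1 lower (Nob1), where 2262 and 1522 of all 15828 genes were. DESeq2 called 0 in each direction, and over all genes 581 higher and 614 lower. The differences ranged from -0.20 (Nob1) to 0.22 (Noc2l), with standard errors between 0.07 and 0.15, and their median was 0.02. Noc2l (ENSMUSG00000095567, chr4:156236010-156247616, plus strand) was at 266, 271, 257 and 317 CPM in WT with DMSO and 262, 262, 269 and 299 CPM with torin1, and in AMPK KO at 183, 193, 176 and 184 CPM and 215, 206, 208 and 212 CPM. The torin1 libraries were above all DMSO libraries in AMPK KO and mixed with them in WT, and the difference of the responses was 0.22 ± 0.10 (edgeR SE, adjusted p = 0.196). The next largest differences were those of Nob1 (-0.20 ± 0.09, adjusted p = 0.163) and Ddx21 (0.18 ± 0.10, adjusted p = 0.295). The interval that these errors leave does not show that the responses were equal. The median of the differences turned negative without WT torin1 replicate 1 (-0.08) and without AMPK KO DMSO replicate 3 (-0.09, with 1 gene called lower).

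**Figure D3:**
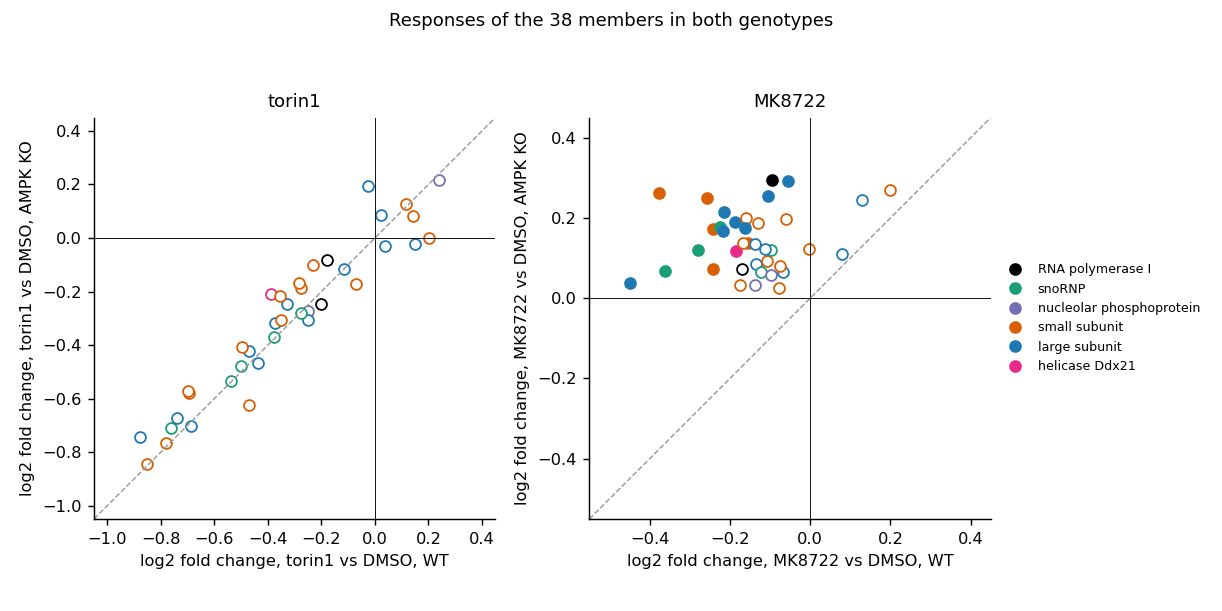
Log2 fold change of each gene in AMPK KO (vertical axis) against WT (horizontal axis) for torin1 (left) and MK8722 (right), coloured by role and filled where the difference between genotypes was called. Torin1 values lay near the dashed line of equality with 0 of 38 filled, and all 38 MK8722 values lay above it with 17 filled.

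MK8722 lowered few of the genes in WT cells. There 4 of 38 fell (Bop1, Dkc1, Nop58 and Tsr1) and 0 rose, where 5.66% of all genes were called lower and 10.0% higher. The median log2 fold change was -0.14, against a value near 0 over all genes, and 35 of 38 values were negative. Without WT DMSO replicate 4 the median was -0.08, with 32 values negative. Genes are not independent replicates, so the sign count is not a count of repeats. By library, the median over the 38 genes against the WT DMSO mean was -0.25 to -0.001 with MK8722. With DMSO it was -0.07 to 0.15, so the libraries overlapped. The pooled SD of such library medians between replicates was 0.09. At an unadjusted p below 0.05, 16 genes were lower and 1 higher (Utp15), where 2869 and 3120 of all 15828 genes were. DESeq2 called 5 lower and 0 higher, and over all genes 942 lower and 1513 higher. The count of lower genes rested on single libraries, since it was 12 without WT MK8722 replicate 2 and 8 without WT DMSO replicate 1, and 1 gene was called higher without WT DMSO replicate 4. Without the 3 libraries of passage 12 it was 6, with a median of -0.17, where 1054 of all genes were called lower. All 4 genes that fell also fell with torin1 in WT, a comparison that shares the DMSO libraries.

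Bop1 (ENSMUSG00000022557, chr15:76452989-76477277, minus strand) showed the largest decrease. It was at 183, 180.0, 176 and 194 CPM in WT with DMSO, at 134, 149, 129 and 126 CPM with MK8722 and at 116, 114, 106 and 120.0 CPM with torin1. The MK8722 libraries lay below all DMSO libraries and above all torin1 libraries, with a log2 fold change of -0.45 ± 0.06 (edgeR SE, adjusted p = 1.87e-06) for MK8722. With the AMPK KO genotype Bop1 was at 330.2, 328, 283 and 321 CPM with DMSO and 334, 311, 337 and 312 CPM with MK8722, which overlapped, with a log2 fold change of 0.04 ± 0.06 (edgeR SE, adjusted p = 0.816).

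Tsr1 (ENSMUSG00000038335, chr11:74898071-74909342, plus strand), a GTPase-like factor of the late small subunit precursor and host of 2 annotated snoRNA genes, was at 163, 168, 177 and 185 CPM in WT with DMSO and at 131, 148, 126 and 129 CPM with MK8722. No library overlapped, and the log2 fold change was -0.38 ± 0.07 (edgeR SE, adjusted p = 0.000478). With torin1 Tsr1 was at 125, 129.5, 138 and 151 CPM, in the same range as with MK8722, and the difference between torin1 and MK8722 was 0.03 ± 0.07 (edgeR SE, adjusted p = 0.796). In AMPK KO cells it was at 155, 165, 126 and 148 CPM with DMSO and 191, 155, 189 and 178 CPM with MK8722, where most MK8722 libraries were higher and the groups overlapped.

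Dkc1 (ENSMUSG00000031403, chrX:75095854-75109777, plus strand) was at 180.5, 186, 195 and 224 CPM in WT with DMSO and at 147, 178, 139 and 148 CPM with MK8722, just without overlap, with a log2 fold change of -0.36 ± 0.08 (edgeR SE, adjusted p = 0.000967). For AMPK KO its values were 189, 194, 172 and 183 CPM and 194, 179.5, 199 and 200.4 CPM, which overlapped. Nop58, the fourth gene that fell, was at 282 to 336 CPM with DMSO and 229 to 282 CPM with MK8722 in WT. Its log2 fold change was -0.28 ± 0.07 (edgeR SE, adjusted p = 0.00398), and its groups overlapped narrowly.

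In AMPK KO cells the values with MK8722 had the opposite sign. All 38 log2 fold changes were positive, with a median of 0.13 against a value near 0 over all genes, and 3 genes rose (Polr1b, Rrp1b and Utp15) and 0 fell, where 0.866% of all genes were called higher and 0.695% lower. Without AMPK KO DMSO replicate 3 the median was 0.08. Here too the 38 genes are not independent replicates. By library, the median over the 38 genes against the AMPK KO DMSO mean was 0.06 to 0.19 with MK8722. With DMSO it was -0.11 to 0.09, so the libraries overlapped. At an unadjusted p below 0.05, 16 were higher and 0 lower, where 1426 and 1184 of all 15828 genes were. DESeq2 called 3 higher and 0 lower, and over all genes 195 higher and 168 lower. For 11 of 38 genes every MK8722 library was above every DMSO library, where 6.1% of all genes showed this. The 3 calls lay near the threshold and were 0 without AMPK KO DMSO replicate 3 or 4 or without MK8722 replicate 1, 3 or 4, 1 without DMSO replicate 1 and 5 without MK8722 replicate 2.

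Polr1b was at 77.5, 82.7, 65.9 and 74.1 CPM in AMPK KO with DMSO and at 93.2, 84.1, 100.5 and 90.4 CPM with MK8722, with a log2 fold change of 0.29 ± 0.08 (edgeR SE, adjusted p = 0.0471). All MK8722 libraries were higher. In WT it was at 93.0, 88.8, 88.1 and 107 CPM and 85.2, 103, 82.1 and 83.1 CPM, where passage 12 gave the highest library of each group and the groups overlapped. Rrp1b (ENSMUSG00000058392, chr17:32036100-32062865, plus strand), a nucleolar protein of large subunit processing, was at 67.0, 75.5, 67.6 and 73.4 CPM in AMPK KO with DMSO and at 89.4, 82.5, 93.0 and 82.5 CPM with MK8722, a log2 fold change of 0.29 ± 0.08 (edgeR SE, adjusted p = 0.0498) without overlap. Utp15 (ENSMUSG00000041747, chr13:98246845-98263041, minus strand) was at 48.4, 50.1, 43.4 and 48.0 CPM and 59.3, 54.8, 58.7 and 56.2 CPM, a log2 fold change of 0.27 ± 0.07 (edgeR SE, adjusted p = 0.0295) without overlap. Utp15 had a positive value in WT too (0.20 ± 0.07, adjusted p = 0.0264), below the fold threshold.

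The MK8722 response differed between genotypes for 17 of 38 genes, and in all 17 it was higher in AMPK KO, where 5.12% of all genes were called higher and 7.66% lower in this interaction. All 38 differences were positive, with a median of 0.30 against a value near 0 over all genes. Without WT DMSO replicate 4 the median was 0.23, with 1 of 38 negative. The edgeR count of genes with a lower response was 0, also at an unadjusted p below 0.05. At that p, 2403 of all 15828 genes were lower. DESeq2 called 21 higher and 0 lower, and over all genes 922 higher and 1204 lower. Of the 17 genes, 7 were large subunit factors (Rrp1b, Rrs1, Wdr12, Bop1, Nop2, Nle1 and Noc3l), 5 small subunit factors (Rrp12, Ddx10, Tsr1, Bysl and Nob1) and 3 snoRNP proteins (Nop56, Nop58 and Dkc1), beside Polr1b and Ddx21. The count was 11 without WT DMSO replicate 4, WT MK8722 replicate 3 or WT MK8722 replicate 4, and 10 without AMPK KO DMSO replicate 3. It was 22 without the 3 passage 12 libraries, where 994 of all genes were called higher.

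The largest difference was that of Tsr1 (0.64 ± 0.11, adjusted p = 0.000171), which fell in WT and had a positive value in AMPK KO (0.26). Rrp12 (ENSMUSG00000035049, chr19:41862851-41896173, minus strand) followed with 0.51 ± 0.11 (edgeR SE, adjusted p = 0.00303). It was at 111, 109.5, 108 and 128 CPM in WT with DMSO and 99.7, 112, 85.0 and 85.8 CPM with MK8722, and at 182, 184, 162 and 183 CPM and 216, 208, 221 and 201 CPM in AMPK KO. MK8722 libraries tended to the lower end in WT with overlap, and lay above all DMSO libraries in AMPK KO, while neither response was called by itself. For Bop1 the difference was 0.49 ± 0.08 (edgeR SE, adjusted p = 0.000141). There were 11 genes like Rrp12, called for the difference and in neither genotype alone.

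Within a passage, each compound could be compared with the DMSO library of the same passage. The median difference of MK8722 from DMSO over the 38 genes was -0.14, -0.14, -0.12 and -0.21 on the log2 scale in WT passages 12, 13, 14 and 15. It was 0.17, 0.09, 0.12 and 0.14 in AMPK KO passages 16, 17, 18 and 19. The sign was thus the same in all 4 passages of a genotype, with 34 to 36 of 38 genes lower in WT and 34 to 38 higher in AMPK KO. For torin1 the within-passage medians in WT were -0.28, -0.38, -0.25 and -0.43. Those of AMPK KO were -0.18, -0.35, -0.30 and -0.28.

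Summed markers of several cell types also moved with the compounds. Neural markers, of which 2 of 6 were tested, were separated from DMSO in the same direction as the median of the 38 genes in all 4 drug comparisons. In WT they summed to 118 to 135 CPM with DMSO, 83.1 to 96.6 CPM with MK8722 and 94.3 to 115 CPM with torin1. The AMPK KO sums were 119 to 124 CPM with DMSO, 134 to 141 CPM with MK8722 and 101 to 109 CPM with torin1. Fibroblast markers, of which 9 of 10 were tested, were higher with torin1 in AMPK KO (6950 to 7430 CPM against 5220 to 5650 CPM) and overlapped in WT (13800 to 17200 CPM against 10600 to 15100 CPM). Endothelial markers, of which 3 of 6 were tested and Kdr was the most abundant, summed to 0.826 to 1.30 CPM with DMSO, 4.24 to 8.08 CPM with MK8722 and 2.02 to 3.82 CPM with torin1 in WT. In AMPK KO they were at 1.63 to 2.15 CPM with DMSO and 2.43 to 3.38 CPM with torin1. Haematopoietic markers, with Adgre1 at 0 in every library, summed to 1.84 to 2.70 CPM with DMSO and 3.01 to 4.36 CPM with MK8722 in WT. Epithelial markers were higher with torin1, at 3.13 to 5.38 CPM against 1.40 to 2.29 CPM in WT and 6.17 to 7.31 CPM against 3.26 to 5.10 CPM in AMPK KO, as was the muscle sum (1.14 to 1.48 CPM against 0.693 to 0.753 CPM, and 2.64 to 3.44 CPM against 1.45 to 2.03 CPM). The part of these markers in the drug results was not tested.

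Without compound, the AMPK KO line differed from WT in both directions. Of the 38 genes, 11 were lower and 3 higher in AMPK KO, where 26.0% of all genes were called lower and 30.9% higher, so the share lower (28.9%) was near that of all genes. The median log2 difference was -0.12 against 0.02 over all genes. It was -0.06 without WT DMSO replicate 4, -0.20 without WT DMSO replicate 1 and -0.19 without WT DMSO replicate 2. Without the 3 passage 12 libraries it was -0.08. Scaling by library size alone raised the median of all genes by 0.14 and gave 5 lower and 7 higher with a median of 0.02. Over all genes it gave 2939 lower and 6073 higher. Relative to the median of all genes, the members' median was -0.14 with both scalings. Fibroblast markers were also lower in AMPK KO (given above), and their part in these differences was not tested.

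Bop1 was the gene most raised in AMPK KO, at 316 ± 22.01 CPM against 183 ± 7.80 CPM in WT (SD, n = 4 each), a log2 difference of 0.78 ± 0.06 (edgeR SE, adjusted p = 9.72e-12). Rrp12 was at 182, 184, 162 and 183 CPM in AMPK KO and 111, 109.5, 108 and 128 CPM in WT, without overlap (0.64 ± 0.08, adjusted p = 1.63e-07), and Fbl was higher as well (0.51 ± 0.05, adjusted p = 1.22e-09). In the other direction, Gnl3 (ENSMUSG00000042354, chr14:31012433-31019152, minus strand), nucleostemin, a GTP-binding protein of the nucleolus, was at 90.2, 101.7, 76.2 and 92.3 CPM in AMPK KO and 134, 137, 139.6 and 153 CPM in WT, without overlap and with a log2 difference of -0.65 ± 0.08 (edgeR SE, adjusted p = 2.19e-07). Noc2l (-0.59), Rrs1 (-0.52), Ddx10 (-0.52), Wdr43 (-0.48), Nop16 (-0.39), Utp15 (-0.37), Ddx21 (-0.35), Rrp1b (-0.35), Polr1b (-0.33) and Heatr1 (-0.28) were lower too. The PeBoW partners of Bop1 did not share its difference, with -0.06 for Pes1 and -0.07 for Wdr12, neither called. Of the RNA polymerase I subunits, Polr1b was lower and Polr1a had a positive value of 0.24 ± 0.06 (edgeR SE, adjusted p = 0.000794) that missed the fold threshold.

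**Figure D4:**
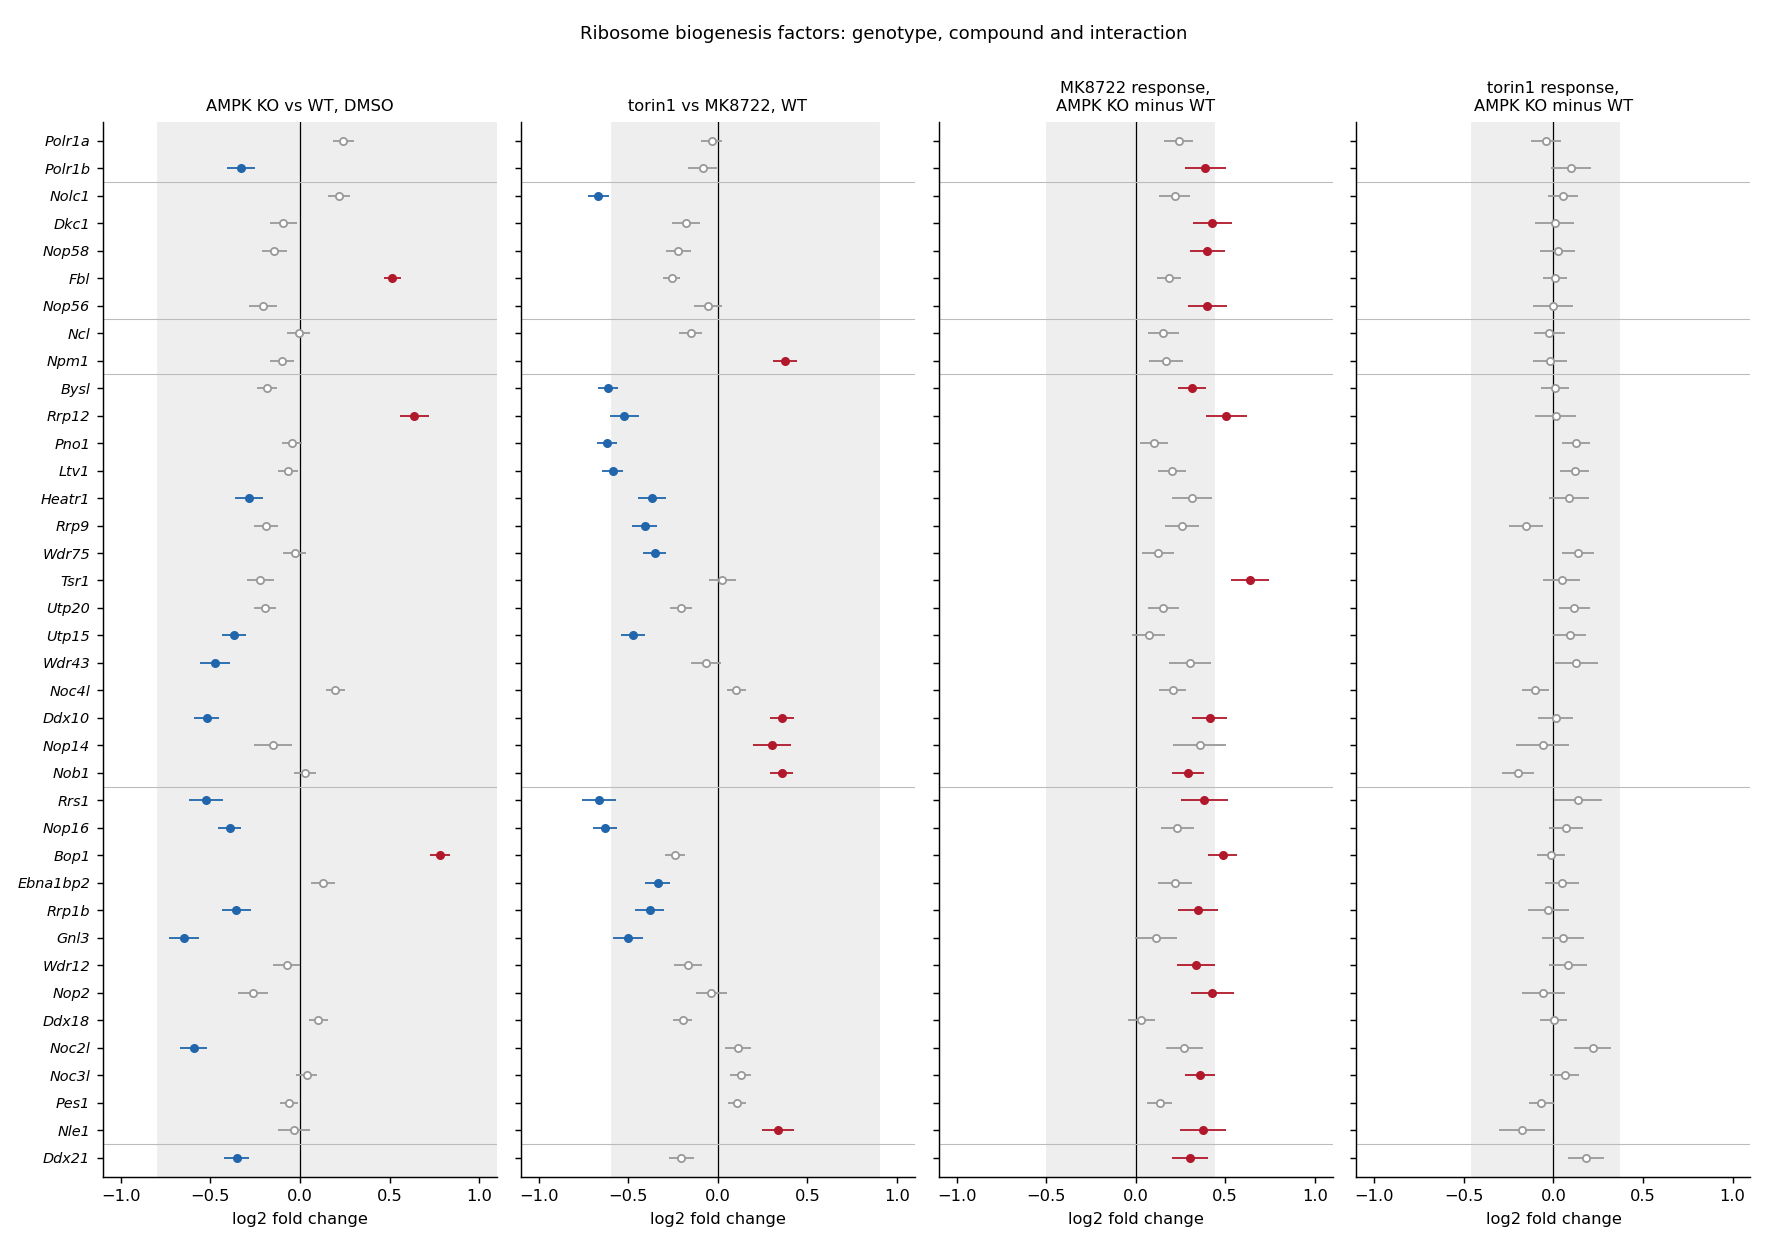
Log2 difference with its standard error (horizontal axis) of each gene (vertical axis, ordered as in the plot of drug responses) for AMPK KO against WT with DMSO, torin1 against MK8722 in WT, and the difference of the MK8722 and of the torin1 response between genotypes. Filled points were called (11 lower and 3 higher, 14 lower and 5 higher, 17 higher, and 0), and the grey band spans the 10th to 90th percentile of all genes tested, cut at the edge of the axis in the first panel.

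Set against MK8722 in WT, torin1 gave lower values for 14 of 38 genes and higher values for 5, where 21.2% of all genes were called lower and 24.5% higher. The median log2 difference was -0.20 against 0.02 over all genes. Each compound stands for a single treatment of its own dose, so nothing is said of potency. Nolc1 was at 363, 406, 349.6 and 359 CPM with MK8722, close to DMSO and far above the torin1 libraries (-0.67 ± 0.06, adjusted p = 1.85e-09). Rrs1 (-0.66 ± 0.09, adjusted p = 1.78e-06) and Nop16 (-0.63 ± 0.07, adjusted p = 2.61e-08) came next. The 5 higher genes were Npm1 (0.38), Ddx10 (0.36), Nob1 (0.36), Nle1 (0.34) and Nop14 (0.30), none of which was called for torin1 or MK8722 against DMSO in WT.

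Gnl3 and Utp15 were among the 3 genes with positive MK8722 values in WT. Gnl3 was at 156, 159, 151 and 151 CPM with MK8722 and at 98.3, 96.3, 114 and 128 CPM with torin1, so the torin1 libraries were all lower (-0.50 ± 0.08, adjusted p = 1.33e-05). Utp15 was at 58.9, 58.1, 58.1 and 69.9 CPM with DMSO, 71.2, 75.04, 66.3 and 68.6 CPM with MK8722 and 47.5, 47.9, 49.2 and 57.8 CPM with torin1. The order of the group means was thus MK8722, DMSO and torin1, with overlap between DMSO and MK8722 and none between DMSO and torin1.

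**Figure D5:**
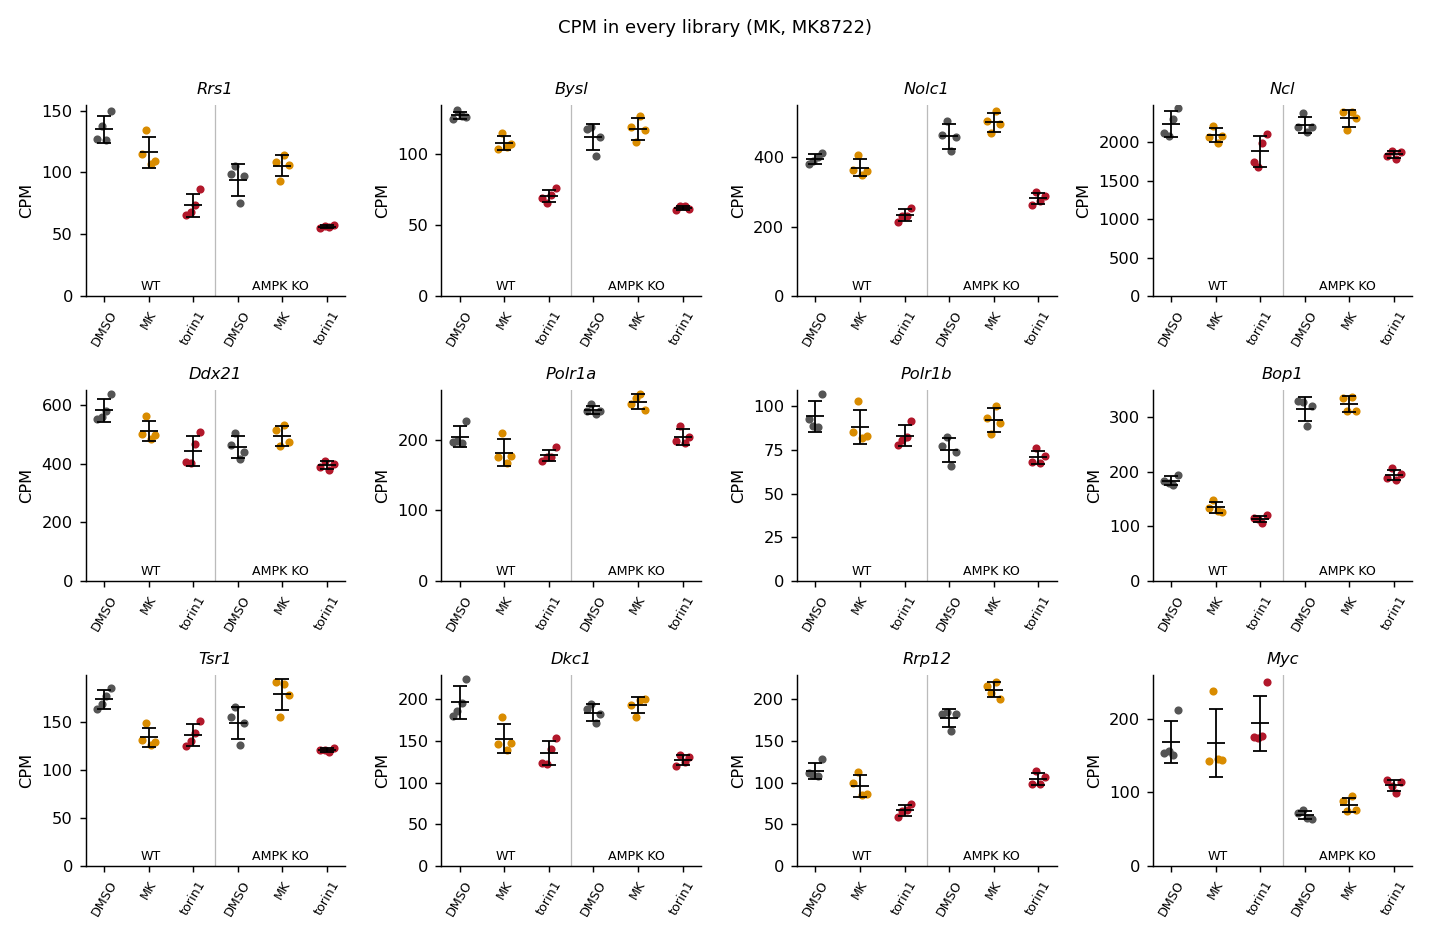
CPM of 11 ribosome biogenesis factors and of Myc (vertical axes, from 0) in each of the 24 libraries by group (horizontal axis), with mean and SD (n = 4). Torin1 libraries were the lowest for Rrs1, Bysl and Nolc1 in both genotypes, Bop1 and Rrp12 were higher in AMPK KO, and Myc was lower in AMPK KO.

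Myc, whose protein is a known activator of ribosome biogenesis genes, was not called lower with either compound. It was at 154, 157, 151 and 212 CPM in WT with DMSO, at 143, 238, 146 and 144 CPM with MK8722 and at 176, 174, 178 and 251 CPM with torin1. The passage 12 library (DMSO replicate 4, MK8722 replicate 2 and torin1 replicate 4) was the highest of each group, as it was for the median of the 38 genes, and the groups overlapped. Among AMPK KO libraries Myc was at 71.4, 75.7, 64.8 and 63.6 CPM with DMSO, 88.1, 74.1, 94.5 and 76.3 CPM with MK8722 and 117, 109, 99.8 and 114 CPM with torin1. It rose with torin1 in AMPK KO (0.67 ± 0.15, adjusted p = 0.000448), where 20 of the 38 genes fell, and was not called with torin1 in WT (0.21 ± 0.14, adjusted p = 0.229). Myc was lower in AMPK KO than in WT with DMSO (-1.29 ± 0.15, adjusted p = 4.42e-08). The difference of its torin1 response between genotypes was not called (0.47 ± 0.21, adjusted p = 0.163). Only the RNA of Myc was measured, and the part of the MYC protein in these results was not tested. The MYC network was taken as 12 genes, the partners and rivals of the MYC protein with Myc itself. In WT 2 of the 12 rose and 4 fell with MK8722, where 10.0% of all genes were called higher and 5.66% lower. With torin1 in WT 3 of the 12 rose and 3 fell, near the 26.6% and 21.1% of all genes. In AMPK KO 0 rose and 2 fell with MK8722, where 0.866% of all genes were called higher and 0.695% lower. With torin1 in AMPK KO 6 rose and 2 fell, where 25.9% of all genes were called higher and 17.6% lower.

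The responses were also counted by whether the promoter held an E-box. Of the 8 genes with the E-boxes shown above, 4 fell with torin1 in WT (Ltv1, Pno1, Tsr1 and Utp20) and the median was -0.27. Of 25 genes without one, 15 fell and their median was -0.33, where 21.1% of all genes were called lower. In AMPK KO 4 of 8 and 12 of 25 fell, where 17.6% of all genes were called lower. For the MK8722 difference between genotypes, 3 of 8 genes with an E-box (Tsr1, Nop2 and Nle1) and 11 of 25 without one were called higher. Of all genes, 5.12% were. Pes1 has its E-box closest to the start, at +3, and was called in none of these comparisons.

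Other genes of the same path were taken from 5 fixed lists of 129 genes (further RNA polymerase I, small subunit, large subunit and snoRNP factors and the RNA exosome, which trims ribosomal RNA), chosen like the members with earlier results known. With torin1 48 of 129 fell (37.2%) and 9 rose (6.98%) in WT, where 21.1% of all genes were called lower and 26.6% higher. In AMPK KO 44 fell (34.1%) and 8 rose (6.20%), where 17.6% of all genes were called lower and 25.9% higher. The median log2 fold change was -0.17 in WT and -0.15 in AMPK KO. The deepest falls were those of the helicase Ddx31 (-0.86 ± 0.08, adjusted p = 5.40e-09 in WT) and of the H/ACA protein Nhp2 (-0.76 ± 0.08, adjusted p = 9.29e-09 in AMPK KO). In WT, Mphosph10 of the small subunit processome (-0.70 ± 0.07, adjusted p = 1.13e-08), the polymerase I initiation factor Rrn3 (-0.54 ± 0.05, adjusted p = 6.06e-10) and Exosc3 of the exosome (-0.62 ± 0.05, adjusted p = 2.35e-10) had the largest falls of their lists. With MK8722, 7 of 129 (5.43%) fell and 2 (1.55%) rose in WT, near and below the 5.66% and 10.0% of all genes. In AMPK KO 1 (0.775%) rose (Naf1, 0.32 ± 0.08, adjusted p = 0.0371) and 0 fell, near the 0.866% and 0.695% of all genes. The response was higher in AMPK KO than in WT for 29 (22.5%) and lower for 0, where 5.12% and 7.66% of all genes were called. The largest such difference was that of Cd3eap, an RNA polymerase I subunit (0.69 ± 0.12, adjusted p = 0.000258), which fell with MK8722 in WT (-0.52 ± 0.08, adjusted p = 5.27e-05).

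A few genes of these lists rose with torin1. Taf1b, a subunit of the factor that places RNA polymerase I on its promoter, was at 8.46, 8.19, 8.75 and 9.04 CPM in WT with DMSO and 16.9, 13.0, 18.1 and 14.8 CPM with torin1 (0.87 ± 0.09, adjusted p = 2.90e-08), and rose in AMPK KO too (0.77 ± 0.09, adjusted p = 1.82e-07). Zfp622, a late large subunit factor, was at 49.2 to 54.3 CPM with DMSO and 81.8 to 88.9 CPM with torin1 in WT (0.72 ± 0.05, adjusted p = 3.56e-12). Exosc6 was low, at 1.93, 2.01, 2.31 and 0.91 CPM with DMSO and 10.0, 8.85, 6.20 and 9.85 CPM with torin1 in WT (2.29 ± 0.28, adjusted p = 2.12e-07), and at 1.94, 3.45, 1.92 and 1.74 CPM with torin1 in AMPK KO. Its torin1 response was the one of the 15 exosome genes with the largest difference between genotypes (-1.83 ± 0.41, adjusted p = 0.00637).

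The snoRNA host genes, whose introns hold the guide RNAs used by the snoRNPs, were mostly higher with torin1, unlike the snoRNP proteins. Of 13 host genes tested, 7 rose (53.85%) and 1 fell with torin1 in WT, where 26.6% of all genes were called higher and 21.1% lower. In AMPK KO 8 rose (61.54%) and 0 fell, where 25.9% of all genes were called higher and 17.6% lower. Zfas1 was at 29.3, 33.2, 29.7 and 39.2 CPM in WT with DMSO and 148, 122, 154 and 167 CPM with torin1, and at 35.8, 36.2, 33.1 and 34.6 CPM and 156, 129.5, 143 and 145 CPM in AMPK KO. The torin1 libraries were far above the DMSO libraries in both, with log2 fold changes of 2.17 ± 0.10 (edgeR SE, adjusted p = 3.67e-14) and 2.04 ± 0.10 (edgeR SE, adjusted p = 3.07e-13). Zfas1 is antisense to a neighbouring gene, and it is not given in the sources used here whether strand was used in counting. Several members are themselves hosts of snoRNA genes annotated on the same strand, with 5 in Nop56, 4 in Nop58, 3 each in Ncl, Wdr43 and Gnl3, 2 in Tsr1 and 1 in Dkc1. With torin1, Nop56, Nop58, Gnl3, Tsr1 and Dkc1 fell in both genotypes, Ncl in AMPK KO alone and Wdr43 in neither. Since 0 of all 38 members were called higher with torin1, this sets these hosts apart from no other member.

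Estimated counts per transcript gave the share of the TPM of each gene assigned to transcripts that are not of the protein-coding class, such as retained introns. Of the 38 genes, 31 had a share between 1% and 99%. With torin1 in WT this share was lower on average for 24 of 31, with a median difference of -1.01 percentage points against -0.14 points over all 9167 such genes. Groups did not overlap for 5 genes with a lower share (Nop16, Ncl, Nop56, Polr1a and Noc2l) and 1 with a higher share (Ddx18), where 2.96% and 3.63% of all such genes showed this. In AMPK KO the share was lower for 12 of 31, with a median difference of 0.42 points, and groups did not overlap for Nolc1 (lower), Ddx18 and Pes1 (higher), where 3.0% and 3.12% did. The split among transcripts of a gene is an estimate from short reads.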

How the data were processed

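RNA of 24 MEF cultures was sequenced from poly(A)-selected libraries. The authors aligned reads with STAR and quantified them with Salmon on build GRCm38 in the nf-core RNA-seq pipeline, with molecular identifiers, per the study's methods. The deposited tables hold estimated counts per gene and per transcript, and TPM per transcript, which the authors computed for each sample without pooling. Versions of these tools are not used here. Groups came from the labels, and the passage differed among the cultures of a group.

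After rounding of the estimated counts, genes were filtered with filterByExpr and scaled by TMM, and 15828 genes, holding 99.96% of counts, were tested with edgeR 4.0.16 (R 4.3.3) by its quasi-likelihood test over all 6 groups, as group means with no other term. Calls needed a Benjamini-Hochberg adjusted p below 0.05 over all 15828 genes and a fold change of at least 1.2, the thresholds of the study. The study also used limma to remove a batch effect. No such step was taken here, where all libraries carried the same batch label. Levels are CPM, with log2 values using a prior count of 2. The code was tested on simulated counts. Alternatives used DESeq2 1.42.0, other scalings, filters, offsets, thresholds, blocks and left-out libraries. Gene positions came from GENCODE M21 (GRCm38), and figures were drawn with matplotlib 3.10.9.

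The members, the 5 lists of other ribosome biogenesis genes, the snoRNA host genes, the MYC network and the marker lists were chosen with earlier results of these data known, and 2 list genes were left unmatched. Values in every library were given for Myc, both RNA polymerase I genes, the gene of each other role with the largest torin1 change in WT, the 3 with the largest change in each other comparison, and genes called with MK8722 in AMPK KO. Replicates differed by more than sampling noise, with a chi-square per degree of freedom of 3.37 to 24.9 in 36 pairs.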

Additional observations from a re-analysis of the deposited data

Results flagged for a closer look

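In groups of 4 libraries, a library was marked when its gap to the nearest other library, as a share of the range of the group, exceeded Dixon's critical value. Of 234 values tested, 17 were marked, where chance gives about 1 in 20. WT DMSO replicate 4, of passage 12, was the highest of its group for Polr1a (226 CPM), Utp15 (69.9 CPM), Heatr1 (191 CPM), Pes1 (196 CPM), Nop2 (264 CPM), Nop16 (75.9 CPM) and Ddx18 (141 CPM), and for the median over the 38 genes (0.15 on the log2 scale). WT MK8722 replicate 2, also of passage 12, was the highest for Polr1b (103 CPM), Nop56 (474 CPM) and Rrp1b (103 CPM). In AMPK KO, DMSO replicate 2 was the highest for Npm1 (1872 CPM) and Wdr75 (101 CPM), DMSO replicate 3 was the lowest for Rrp12 (162 CPM), MK8722 replicate 2 was the lowest for Nop58 (275 CPM), MK8722 replicate 4 was the lowest for Noc2l (188 CPM) and torin1 replicate 2 was the highest for Noc4l (81.0 CPM).

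The log2 response to MK8722 in AMPK KO minus that in WT passed the edgeR interaction test for 17 genes. Among small subunit factors the difference was 0.64 for Tsr1, 0.51 for Rrp12, 0.41 for Ddx10, 0.32 for Bysl and 0.29 for Nob1. Among large subunit factors it was 0.49 for Bop1, 0.43 for Nop2, 0.38 for Rrs1, 0.38 for Nle1, 0.36 for Noc3l, 0.35 for Rrp1b and 0.34 for Wdr12. It was 0.43 for Dkc1, 0.40 for Nop56 and 0.40 for Nop58 among snoRNP proteins, 0.39 for Polr1b and 0.30 for Ddx21.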

How the results depend on the processing

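No called gene changed sign in any alternative run. The counts moved mainly with the threshold, and also with the scaling and with single libraries. In this paragraph, counts over all genes tested in the same run stand in brackets. A fold change of at least 1.5 left 0 lower genes for MK8722 in WT, 0 higher for MK8722 in AMPK KO, 8 lower for torin1 in WT, 7 lower for torin1 in AMPK KO, 2 lower for AMPK KO against WT, 0 higher and 6 lower for torin1 against MK8722, and 1 higher for the MK8722 interaction. A test against a fold change of 1.2 gave 1 lower for MK8722 in WT, 0 higher for MK8722 in AMPK KO, 16 lower for torin1 in WT, 15 lower for torin1 in AMPK KO, 7 lower for AMPK KO against WT, 1 higher and 10 lower for torin1 against MK8722 and 2 higher for the MK8722 interaction. The adjusted p alone gave 1 higher and 10 lower for MK8722 in WT, 2 higher for torin1 in each genotype, and 6 higher and 17 lower for AMPK KO against WT. Scaling by library size alone gave 1 higher (106) for MK8722 in AMPK KO. For torin1 in WT it gave 2 higher (5174) and 17 lower (2493) with a median of -0.24. Relative to the median of all genes, that median was -0.38 with both scalings. Torin1 in AMPK KO had 1 higher (4764) and 15 lower (2237). Torin1 against MK8722 had 12 lower (2524) with a median of -0.11. For AMPK KO against WT there were 7 higher (6073) and 5 lower (2939), with a median of 0.018 in place of -0.12. An offset for transcript length (81) and removal of a GC content and length trend (143) each gave 1 higher for MK8722 in AMPK KO. For torin1, removal of that trend gave 26 lower in each genotype (3544 in WT and 3279 in AMPK KO). At least 10 counts in every sample gave 1 higher (3606) for torin1 in WT and 5 higher (3678) for AMPK KO against WT. No filter gave 7 lower (1051) for MK8722 in WT, and the compared groups alone gave 1 lower (831) for the torin1 interaction. The cause was not tested.

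Leaving out each library in turn gave 0 to 1 higher and 3 to 12 lower for MK8722 in WT. The median of that comparison was -0.20 to -0.08. For MK8722 in AMPK KO there were 0 to 5 higher with a median of 0.08 to 0.17. The median was -0.20 to -0.06 for AMPK KO against WT. For torin1 there were 0 to 1 higher and 20 to 26 lower in WT, and 15 to 25 lower in AMPK KO. The MK8722 interaction had 10 to 24 higher with a median of 0.23 to 0.35. The torin1 interaction had 0 to 1 lower with a median of -0.092 to 0.075. Leaving out the 3 passage 12 libraries was chosen after seeing the data. Replicate numbers did not pair the libraries, since the deviations of same-numbered libraries had correlations of -0.20 to 0.25, with 5 of 60 over 0.1. With the replicate number as a block, the MK8722 interaction count was 15 in place of 17 and the counts of the other comparisons were as given, with 23 lower for torin1 in WT and 20 in AMPK KO. Same-passage libraries had correlations of -0.01 to 0.37, with 15 of 24 over 0.1. Passage as a block gave 4 higher for MK8722 in AMPK KO and 21 for the MK8722 interaction, where 414 and 1200 of all genes were called higher. A passage block could not be fitted for AMPK KO against WT. With 4 libraries a group, fold changes near 1.2 lie close to their error.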
